A study of Mus musculus with 15 samples.

Results

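Interferon-stimulated genes are genes whose transcription is raised when a cell answers an interferon. A list of 47 of them was followed here through 5 treatments of mouse mammary tumour spheres. A gene was measured by a probe set, the group of oligonucleotides on the array that reads its transcript, and only probe sets annotated to a single gene were used. Where a gene had several, the one with the highest mean log2 signal over all arrays stood for it. Of the 47 genes, 45 had such a probe set, among 18193 genes on the array that had one. The other two, Isg15 and Ifi44, were not analysed here.

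The study used primary tumour cells of MMTV-PyMT mice on the FVB/N background, in which the mouse mammary tumour virus promoter drives the polyoma middle T oncogene in mammary epithelium. All groups carried this transgene, so none was a normal tissue control. The cells were grown as mammospheres, free-floating clusters in serum-free medium with EGF, FGF and B27, for 10 days, and an inhibitor or vehicle was present for a further 2 days. Each of the 5 groups had 3 Affymetrix Mouse430_2 arrays, and the labels call these biological replicates without saying whether they came from separate mice or cultures. One group received vehicle. The others received DAPT, which blocks the gamma-secretase that activates Notch, U0126, an inhibitor of the kinase MEK1, TAE226, an inhibitor of the focal adhesion kinase FAK, or PP2, an inhibitor of Src kinases. No source used here gives the doses, so differences between inhibitors are differences between these treatments as applied.

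Type I interferons bind the receptor chains Ifnar1 and Ifnar2, whose kinases Jak1 and Tyk2 phosphorylate Stat2. Stat2 and Irf9 are parts of a complex that binds the interferon-stimulated response element, and the genes behind that element encode sensors of viral nucleic acid, proteins that block viral RNA and protein synthesis, GTPases that attack vacuoles and capsids, and the factors Irf7, Irf9 and Stat2 themselves. Type II interferon acts through the gamma-activated site, and tumour cells can carry a sustained level of these transcripts without infection.

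The response element can be read in the members' promoters. RefSeq promoter sequences (build GRCm38.p6) were available for 34 of the 45 measured members, and the 250 bases before the start were searched on both strands for the core of the response element (GAAA, any 2 bases, GAAA), for a closer spacing (GAAA, any 1 base, GAAA) and for the gamma-activated site (TTC, any 3 bases, GAA). The core occurred in 16 of the 34 members (47.1%), against 936 of 27025 genes in the promoter table (3.46%). By class, it lay before 6 of the 7 GTPase genes with a promoter in the table. It lay before 2 of 4 OAS genes, 4 of 9 effectors, 1 of 3 sensors and 1 of 3 nuclear body and TRIM30 genes. Of the 4 transcription factors 1 had it, and Irf7 and Irf9 did not. Cxcl10 had it, and 0 of 3 ubiquitin and ADP-ribose enzymes did. The gamma-activated site occurred in 8 members (23.5%) against 8.13% of all genes, and the closer spacing in 2 members (5.88%) against 3.13%. Matches of the core may overlap, as the 2 in Oas1a do. A stretch of 90 bases is printed for 8 members that have a match. They are effectors, an OAS gene, GTPases, a transcription factor and a chemokine, so not every class described below is shown. Each match of the core, or its reverse complement, is in capitals, and the gene's own strand is read 5′ to 3′.
Ifit1: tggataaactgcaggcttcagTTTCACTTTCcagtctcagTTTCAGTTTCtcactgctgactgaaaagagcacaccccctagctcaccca
Rsad2: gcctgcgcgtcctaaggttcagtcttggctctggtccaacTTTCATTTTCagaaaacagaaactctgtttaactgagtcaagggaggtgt
Oas1a: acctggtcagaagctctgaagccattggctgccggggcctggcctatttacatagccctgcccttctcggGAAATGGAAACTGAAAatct
Gbp2: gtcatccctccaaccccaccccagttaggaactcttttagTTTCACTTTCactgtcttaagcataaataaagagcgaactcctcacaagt
Igtp: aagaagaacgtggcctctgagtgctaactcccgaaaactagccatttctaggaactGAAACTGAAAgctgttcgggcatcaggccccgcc
Irgm2: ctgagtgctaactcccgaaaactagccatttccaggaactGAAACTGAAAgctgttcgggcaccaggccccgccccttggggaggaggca
Stat2: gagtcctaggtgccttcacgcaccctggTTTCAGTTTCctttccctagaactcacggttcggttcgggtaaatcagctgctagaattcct
Cxcl10: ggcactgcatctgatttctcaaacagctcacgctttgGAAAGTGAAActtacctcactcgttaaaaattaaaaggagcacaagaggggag
These stretches lie at chr19:34640764-34640853 (plus strand) for Ifit1, chr12:26456523-26456612 (minus strand) for Rsad2, chr5:120907526-120907615 (minus strand) for Oas1a, chr3:142620564-142620653 (plus strand) for Gbp2, chr11:58199466-58199555 (plus strand) for Igtp, chr11:58214873-58214962 (plus strand) for Irgm2, chr10:128270248-128270337 (plus strand) for Stat2 and chr5:92349050-92349139 (minus strand) for Cxcl10. In Oas1a the nearest match ended 5 bases before the start, and in Stat2 it lay 213 bases before it. The stretches of the neighbouring GTPase genes Igtp and Irgm2 shared a run of 29 identical bases that holds the match. Matches are letters in a sequence and were not measured as bound sites.

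Signals were compared as log2 of the deposited MAS5 intensity. Array medians ran from 65.7 to 90.8 signal units, and a group was called dim for a gene where each of its 3 arrays was below its own array's median. A pair of arrays of 1 group differed by a median of 0.0956 to 0.15 log2 units over all genes, and a pair of different groups by 0.169 to 0.351. The 3′ to 5′ signal ratio of actin, a measure of RNA integrity, was 1.42 ± 0.06 (SD, n = 3) in vehicle, 1.35 ± 0.07 under DAPT, 1.28 ± 0.07 under U0126, 1.33 ± 0.07 under TAE226 and 1.57 ± 0.04 under PP2, so vehicle lay within the range of the inhibitor groups. The same ratio of Gapdh was 0.777 in vehicle, below the means of 0.801, 0.791, 0.793 and 0.827 under DAPT, U0126, TAE226 and PP2, and the vehicle arrays, from 0.774 to 0.780, overlapped the arrays of each inhibitor but PP2, which began at 0.812. The part of RNA integrity in the members' changes was not tested. Of the 45 members, 44 were above the array median on at least 3 arrays and were tested. Sp100, a nuclear body protein, was dim in all groups and was not. Among the 44, Mx1, Ifi47 and Cxcl10 were above the median in vehicle arrays only, so they entered the test through the group in which they were high. Above the median on all 15 arrays were 24 members.

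Nearly all tested members fell under every inhibitor. Against vehicle, 44 of the 44 tested members fell under DAPT, 44 under U0126, 42 under TAE226 and 44 under PP2, and 0 rose (limma, adjusted p under 0.05). Over all 11465 genes tested, the share that rose was 16.8% under DAPT, 19.4% under U0126, 15% under TAE226 and 25.8% under PP2, and the share that fell was 17.5% under DAPT, 21.3% under U0126, 15.9% under TAE226 and 26.9% under PP2. The median log2 fold change of the members was -2.99 under DAPT, -3.28 under U0126, -1.33 under TAE226 and -3.11 under PP2, while the median over all genes lay between 0.00 and 0.02. Setting dim signals to the array median, below which a signal has no reliable level, gave medians of -2.69, -2.91, -1.33 and -2.73 in the same order. In a fit with no filter on dim genes, which takes in all 45 measured members, 44 fell under DAPT, 44 under U0126, 41 under TAE226 and 44 under PP2. In the main fit without Mx1, Ifi47 and Cxcl10, 41 of 41 members fell under DAPT, 41 under U0126, 39 under TAE226 and 41 under PP2. Over the 5 groups together, 44 of the 44 differed by limma's F-test, as did 72.9% of all genes. The 4 comparisons share the same vehicle arrays and are not independent of each other. In such bulk samples a smaller number of expressing cells and less RNA per cell cannot be told apart.

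**Figure D1:**
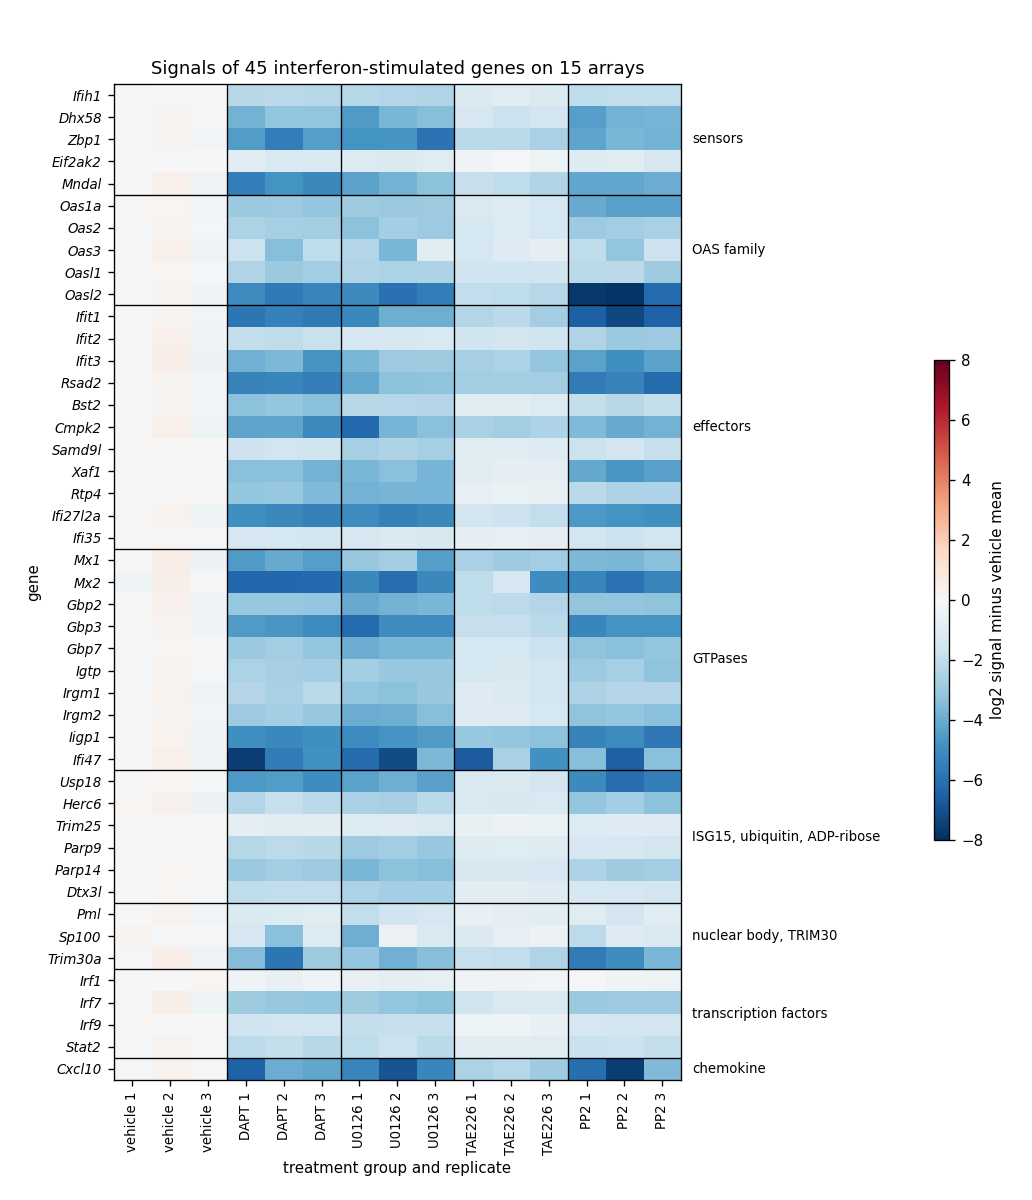
Log2 signal of each of the 45 measured members (rows, by role) on each of the 15 arrays (columns), minus the mean of the 3 vehicle arrays. Blue is below and red above the vehicle mean. The 12 inhibitor arrays are blue in nearly all rows, and the TAE226 arrays are the palest.

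The size of the fall set TAE226 apart. Members lower by more than 4-fold in the fit numbered 35 under DAPT, 36 under U0126, 14 under TAE226 and 33 under PP2. The shares of all genes were 0.733%, 1.02%, 0.253% and 1.33%. Among the 44 tested members, 10 were dim under DAPT, 8 under U0126, 3 under TAE226 and 11 under PP2. For these the fitted change is not a measured size. Some members not called dim had only 1 array of a group above its median. They were Ifit1, Ifit3 and Cmpk2 under DAPT, Oas2 and Oas3 under U0126, and Oas2, Zbp1 and Ifi27l2a under PP2. The sizes given for these rest in part on signals without a reliable level. The counts over 4-fold take in Oas3 under DAPT and PP2, where its bounds, given below, are under 4-fold. Of the 25 tested genes with the greatest fitted falls, 15 were members under DAPT, 10 under U0126, 13 under TAE226 and 15 under PP2. Dim signals entered these ranks at their fitted values. All 3 arrays of each inhibitor group were below all 3 vehicle arrays for each of the 44 tested members. Over all genes the same held for 23.2% under DAPT, 24.9% under U0126, 21.6% under TAE226 and 29.3% under PP2. Vehicle had the highest group mean in 44 of 44 members and TAE226 the second highest in 42. Ifit2, where U0126 was second, and Ifi47, dim under all inhibitors, were the exceptions. The TAE226 change was a median 47.4% of the mean change under the other inhibitors on the log2 scale, with a range of 18.9% to 87.9%.

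**Figure D2:**
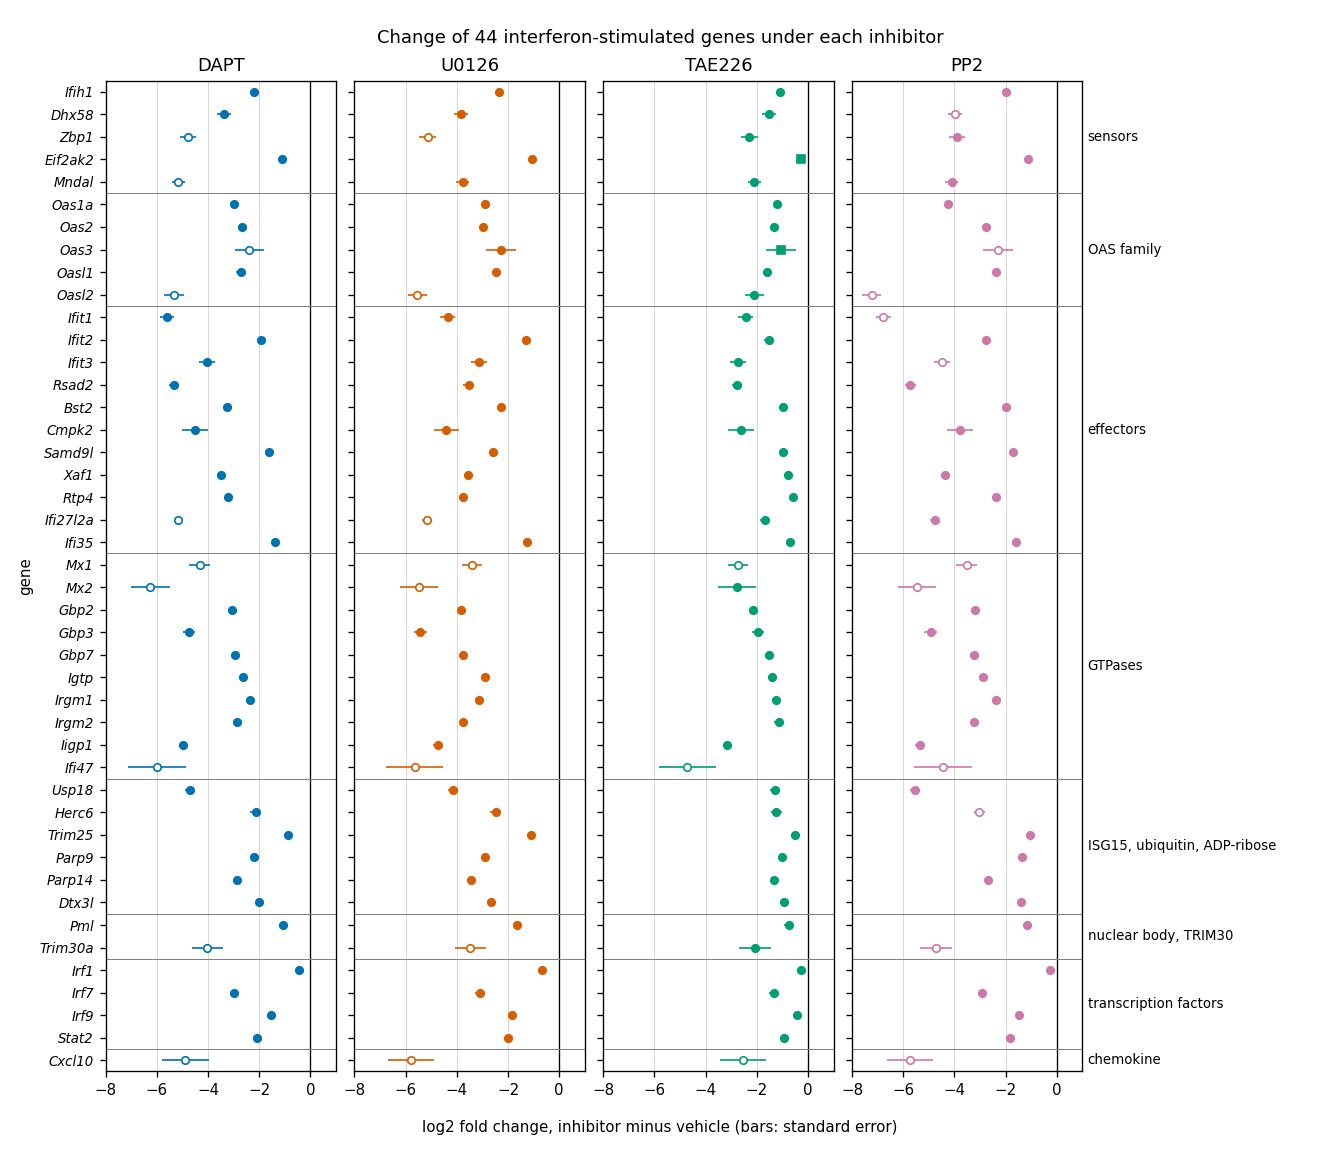
Log2 fold change of each of the 44 tested members (rows, by role) under each inhibitor against vehicle, with the standard error as a bar. Open symbols mark members that were dim under that inhibitor, whose change is a fitted value and not a measured size, and squares mark the members that did not pass the test. All points lie left of 0, and the squares are Eif2ak2 and Oas3 under TAE226.

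The sensors recognise viral nucleic acid. Ifih1 (MDA5) binds long double-stranded RNA and signals to induce interferon. Its log2 signals were 11.94, 12.03 and 12.05 in vehicle, 9.81, 9.85 and 9.70 under DAPT, 9.73, 9.69 and 9.58 under U0126, 10.88, 11.03 and 10.88 under TAE226 and 9.99, 10.04 and 10.05 under PP2. The vehicle arrays were the highest, the TAE226 arrays came next without overlap, and the other groups were lower still. The log2 fold change of Ifih1 was -2.22 under DAPT, -2.34 under U0126, -1.08 under TAE226 and -1.98 under PP2 (standard error 0.06, adjusted p at most 2.57e-09).

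Dhx58 (LGP2), a regulator of the same RNA helicases, had log2 signals of 9.91, 10.18 and 9.81 in vehicle, 6.19, 6.80 and 6.82 under DAPT, 5.44, 6.34 and 6.58 under U0126, 8.62, 8.25 and 8.46 under TAE226 and 5.54, 6.18 and 6.26 under PP2. It was dim under PP2, where vehicle was at least 11.7-fold higher. Such bounds set the vehicle mean against the mean of the array medians of the dim group. Its log2 fold changes elsewhere were -3.36 under DAPT, -3.84 under U0126 and -1.52 under TAE226 (standard error 0.27, adjusted p at most 0.000352).

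Zbp1 senses left-handed nucleic acid and can start necroptosis. On the arrays its log2 signals were 10.17, 10.38 and 9.97 in vehicle, 5.72, 4.65 and 5.76 under DAPT, 5.38, 5.47 and 4.26 under U0126, 8.03, 8.03 and 7.58 under TAE226 and 5.96, 6.50 and 6.39 under PP2. It was dim under DAPT and U0126, where vehicle was at least 14.4-fold and at least 14.9-fold higher, while TAE226 and PP2 stood between, with log2 fold changes of -2.29 and -3.89 (standard error 0.32, adjusted p at most 4.47e-05). Mndal, a member of the interferon-inducible family of DNA-binding proteins, gave 10.77, 11.10 and 10.28 in vehicle, 5.19, 5.93 and 5.55 under DAPT, 6.45, 6.96 and 7.42 under U0126, 8.88, 8.68 and 8.29 under TAE226 and 6.53, 6.58 and 6.72 under PP2. Here DAPT alone was dim, with vehicle at least 21-fold higher, and the changes were -3.77 under U0126, -2.10 under TAE226 and -4.11 under PP2 (standard error 0.25, adjusted p at most 7.68e-06). The probe set of Mndal has the suffix that marks possible cross-hybridisation with similar transcripts, and related genes lie beside it.

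Eif2ak2 (PKR), the kinase that stops translation when it meets double-stranded RNA, changed least among the sensors. Log2 signals of Eif2ak2 were 12.00, 12.01 and 11.99 in vehicle, 11.14, 10.77 and 10.79 under DAPT, 10.88, 10.85 and 11.06 under U0126, 11.74, 11.85 and 11.61 under TAE226 and 10.95, 11.10 and 10.63 under PP2. Vehicle arrays were nearly identical, and DAPT, U0126 and PP2 arrays lay about 1 log2 unit lower. The changes were -1.10, -1.07 and -1.11 (standard error 0.11, adjusted p at most 8.38e-07). Under TAE226 the change was -0.27 with an adjusted p of 0.0757, which did not pass. The second brightest probe set of the gene gave -0.51 (adjusted p = 0.00502) under TAE226, and centring the arrays on their medians gave -0.52 (adjusted p = 0.00144).

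The OAS family makes or resembles the enzymes that make 2′-5′ oligoadenylate, the messenger that activates RNase L. All 5 tested members fell under DAPT, U0126 and PP2 and 4 fell under TAE226. The shares of all genes that fell were 17.5% under DAPT, 21.3% under U0126, 26.9% under PP2 and 15.9% under TAE226. Oas1a gave log2 signals of 12.52, 12.59 and 12.23 in vehicle, 9.50, 9.52 and 9.33 under DAPT, 9.58, 9.50 and 9.53 under U0126, 11.27, 11.40 and 11.05 under TAE226 and 8.40, 8.11 and 8.12 under PP2. No groups overlapped except DAPT and U0126, and PP2 was the lowest. Its changes were -3.00 under DAPT, -2.91 under U0126, -1.21 under TAE226 and -4.24 under PP2 (standard error 0.11, adjusted p at most 2.88e-07).

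Oas2 was at 9.07, 9.38 and 8.99 in vehicle, 6.60, 6.49 and 6.37 under DAPT, 5.89, 6.40 and 6.21 under U0126, 7.71, 8.03 and 7.74 under TAE226 and 6.22, 6.35 and 6.57 under PP2. DAPT, U0126 and PP2 arrays intermixed, and the TAE226 arrays lay between them and vehicle. The changes of Oas2 were -2.66 under DAPT, -2.98 under U0126, -1.32 under TAE226 and -2.77 under PP2 (standard error 0.17, adjusted p at most 2.07e-05). Oasl1, which lacks the enzymatic activity and restrains Irf7 translation, was at 9.83, 9.99 and 9.75 in vehicle, 7.47, 6.87 and 7.05 under DAPT, 7.44, 7.34 and 7.36 under U0126, 8.28, 8.26 and 8.26 under TAE226 and 7.68, 7.73 and 7.04 under PP2. Its changes were -2.72 under DAPT, -2.47 under U0126, -1.59 under TAE226 and -2.37 under PP2 (standard error 0.17, adjusted p at most 2.41e-06). In both genes the TAE226 arrays stood alone between vehicle and the rest.

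Oasl2 had log2 signals of 10.43, 10.61 and 10.13 in vehicle, 5.37, 4.72 and 5.11 under DAPT, 5.29, 4.40 and 4.87 under U0126, 8.45, 8.34 and 8.08 under TAE226 and 2.67, 2.56 and 4.25 under PP2. The gene was dim under DAPT, U0126 and PP2, and vehicle was at least 16.8-fold, 17.4-fold and 15.8-fold higher, so the order of these groups has no meaning. Under TAE226 it was above the array median, with a change of -2.10 (standard error 0.38, adjusted p = 0.000416).

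Oas3 was the noisiest of the family, at 7.71, 8.20 and 7.38 in vehicle, 6.04, 4.38 and 5.72 under DAPT, 5.40, 4.12 and 6.91 under U0126, 6.36, 6.74 and 7.01 under TAE226 and 5.73, 4.62 and 6.08 under PP2. Its inhibitor arrays scattered over more than 2 log2 units, and it was dim under DAPT and PP2, where vehicle was at least 2.71-fold and 2.55-fold higher. The change under U0126 was -2.28 (adjusted p = 0.00466). Under TAE226 it was -1.06 with a standard error of 0.58 and an adjusted p of 0.187, which did not pass, although none of the TAE226 arrays reached the lowest vehicle array. With signals raised to the array median the same comparison had an adjusted p of 0.00104, and with a pseudocount 0.0281.

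The effectors block steps of viral replication or help the response. All 11 tested effectors fell under each inhibitor, as did 17.5% of all genes under DAPT, 21.3% under U0126, 15.9% under TAE226 and 26.9% under PP2. Ifit1, which holds back translation of RNA that lacks cap methylation, had log2 signals of 11.73, 11.98 and 11.52 in vehicle, 5.99, 6.36 and 6.08 under DAPT, 6.56, 7.81 and 7.82 under U0126, 9.38, 9.56 and 8.97 under TAE226 and 5.20, 4.45 and 5.26 under PP2. The U0126 arrays ran from 6.56 to 7.82, above all DAPT arrays, and the PP2 arrays were dim, with vehicle at least 40.4-fold higher. The changes were -5.60 under DAPT, -4.35 under U0126 and -2.44 under TAE226 (standard error 0.29, adjusted p at most 7.68e-06).

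Rsad2 (viperin) makes a chain-terminating ribonucleotide. Its signals on the log2 scale were 12.59, 12.83 and 12.41 in vehicle, 7.28, 7.40 and 7.17 under DAPT, 8.51, 9.34 and 9.40 under U0126, 9.80, 9.92 and 9.81 under TAE226 and 6.99, 7.24 and 6.44 under PP2. None of the DAPT and PP2 arrays exceeded 7.40, whereas U0126 reached 9.40, close to TAE226. The log2 fold change was -5.33 under DAPT, -3.53 under U0126, -2.77 under TAE226 and -5.72 under PP2 (standard error 0.21, adjusted p at most 4.48e-08). Cmpk2, a mitochondrial nucleotide kinase encoded beside Rsad2, was at 10.59, 10.96 and 10.13 in vehicle, 6.34, 6.36 and 5.47 under DAPT, 4.37, 6.84 and 7.24 under U0126, 7.98, 7.77 and 8.07 under TAE226 and 7.02, 6.53 and 6.79 under PP2. One U0126 array, at 4.37, was far below the others of its group, and the standard error was larger, with changes of -4.50 under DAPT, -4.41 under U0126, -2.62 under TAE226 and -3.78 under PP2 (standard error 0.50, adjusted p at most 0.000794).

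Ifi27l2a, a small membrane protein often used as an index of the response, was at 11.21, 11.36 and 10.76 in vehicle, 6.18, 5.95 and 5.73 under DAPT, 6.10, 5.70 and 5.98 under U0126, 9.67, 9.46 and 9.16 under TAE226 and 6.51, 6.34 and 6.21 under PP2. The gene was dim under DAPT and U0126, where vehicle was at least 27.5-fold and 28.5-fold higher. Its change was -1.68 under TAE226 and -4.76 under PP2 (standard error 0.18, adjusted p at most 2.4e-06). Thus the TAE226 arrays kept a log2 signal above 9 while no array of the other inhibitors exceeded 6.51.

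Of the other effectors, Ifit2 and Ifit3, partners of Ifit1, changed by -1.91 and -4.05 under DAPT, -1.29 and -3.12 under U0126, and -1.54 and -2.74 under TAE226. Under PP2 Ifit2 changed by -2.75 and Ifit3 was dim, with vehicle at least 13-fold higher. Bst2 (tetherin), which holds budding virus at the cell surface, changed by -3.24 under DAPT, -2.28 under U0126, -0.96 under TAE226 and -2.0 under PP2 (standard error 0.10, adjusted p at most 2.6e-06). The proapoptotic Xaf1 changed by -3.50 under DAPT, -3.56 under U0126, -0.80 under TAE226 and -4.35 under PP2 (standard error 0.13, adjusted p at most 0.000173). Rtp4, a receptor chaperone, changed by -3.21 under DAPT, -3.76 under U0126, -0.59 under TAE226 and -2.38 under PP2 (standard error 0.11, adjusted p at most 0.000638). Samd9l, a translation-blocking growth suppressor, changed by -1.60 under DAPT, -2.59 under U0126, -0.98 under TAE226 and -1.70 under PP2 (standard error 0.07, adjusted p at most 6.33e-08), and Ifi35, a leucine zipper protein, by -1.40 under DAPT, -1.27 under U0126, -0.72 under TAE226 and -1.60 under PP2 (standard error 0.07, adjusted p at most 6.5e-07). For Xaf1 and Rtp4 the TAE226 change was under 1 log2 unit while each other change was over 2. The second brightest probe set of Rtp4 did not pass under TAE226 (adjusted p = 0.249).

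**Figure D3:**
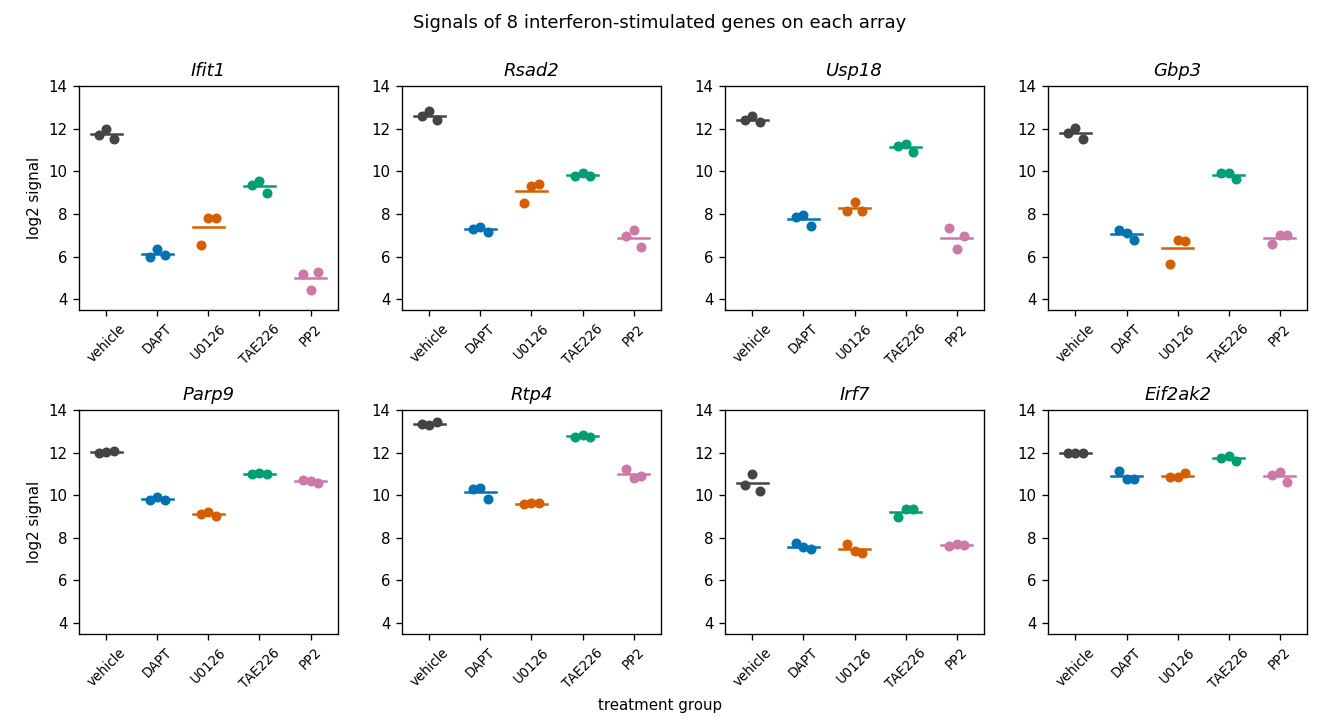
Log2 signal of 8 members on each array (points) in each treatment group, with the group mean as a line. The 3 vehicle arrays are the highest in each panel and the TAE226 arrays come next. The order of DAPT, U0126 and PP2 differs between panels, for example between Rsad2 and Parp9.

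The GTPases of the immunity-related and guanylate-binding families disrupt vacuoles that hold pathogens, and the Mx proteins trap viral nucleoproteins. All 10 tested GTPases fell by more than 2-fold under each inhibitor, as did 2.19% of all genes under DAPT, 2.9% under U0126, 1.3% under TAE226 and 5.31% under PP2. Gbp3 had log2 signals of 11.82, 12.03 and 11.53 in vehicle, 7.26, 7.13 and 6.77 under DAPT, 5.63, 6.77 and 6.74 under U0126, 9.93, 9.95 and 9.64 under TAE226 and 6.58, 7.01 and 7.00 under PP2. No inhibitor array came within 1 log2 unit of the lowest vehicle array, and the DAPT, U0126 and PP2 arrays overlapped. Its change was -4.74 under DAPT, -5.42 under U0126, -1.95 under TAE226 and -4.93 under PP2 (standard error 0.24, adjusted p at most 1.23e-05).

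Iigp1 (Irga6) is a well-studied effector against Toxoplasma vacuoles, and its log2 signals were 11.98, 12.26 and 11.64 in vehicle, 7.08, 6.83 and 7.07 under DAPT, 6.94, 7.26 and 7.45 under U0126, 8.90, 8.88 and 8.65 under TAE226 and 6.62, 6.92 and 6.27 under PP2. Its TAE226 arrays, from 8.65 to 8.90, were nearer to the other inhibitors than to vehicle. The change of Iigp1 was -4.97 under DAPT, -4.74 under U0126, -3.15 under TAE226 and -5.35 under PP2 (standard error 0.18, adjusted p at most 1.76e-09).

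Mx2 was above the array median in vehicle and on 2 TAE226 arrays, with signals of 8.44, 9.26 and 8.71 in vehicle, 2.55, 2.51 and 2.60 under DAPT, 3.66, 2.70 and 3.64 under U0126, 6.75, 7.49 and 3.82 under TAE226 and 3.58, 2.92 and 3.52 under PP2. Vehicle was at least 5.57-fold higher than DAPT, 5.77-fold higher than U0126 and 5.25-fold higher than PP2. One TAE226 array, at 3.82, was far below the other two of its group, and the TAE226 change of -2.78 had a standard error of 0.75 (adjusted p = 0.00921). Ifi47 (Irg-47) was above the median in vehicle only, at 8.77, 9.20 and 8.47 in vehicle, 1.31, 3.19 and 3.94 under DAPT, 2.63, 1.66 and 5.19 under U0126, 2.14, 6.22 and 3.95 under TAE226 and 5.38, 2.30 and 5.47 under PP2. Vehicle was at least 5.62-fold, 5.82-fold, 5.17-fold and 5.29-fold higher than DAPT, U0126, TAE226 and PP2. Mx1, also above the median in vehicle only, had bounds of at least 4.54-fold, 4.7-fold, 4.17-fold and 4.28-fold.

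Gbp2, Gbp7, Igtp, Irgm1 and Irgm2, above the array median in each group, changed by -3.06, -2.96, -2.63, -2.35 and -2.88 under DAPT. Under U0126 the changes were -3.83, -3.76, -2.91, -3.15 and -3.77. Under TAE226 they were -2.16, -1.53, -1.39, -1.25 and -1.15, and under PP2 -3.19, -3.23, -2.90, -2.39 and -3.23. Each of the 5 genes had its lowest mean under U0126, by 0.01 log2 units for Igtp. The standard errors lay between 0.12 and 0.16.

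Isg15 is a ubiquitin-like modifier, and the enzymes around it attach and remove it. Usp18, which removes it and also silences the type I receptor, had log2 signals of 12.40, 12.59 and 12.32 in vehicle, 7.86, 7.94 and 7.44 under DAPT, 8.16, 8.56 and 8.12 under U0126, 11.19, 11.31 and 10.91 under TAE226 and 7.33, 6.36 and 6.98 under PP2. The TAE226 arrays stayed at or above 10.91, and no other inhibitor array passed 8.56. Its change was -4.69 under DAPT, -4.15 under U0126, -1.30 under TAE226 and -5.54 under PP2 (standard error 0.20, adjusted p at most 9.47e-05). Herc6, the mouse ligase for Isg15, was at 9.34, 9.50 and 8.71 in vehicle, 6.84, 7.31 and 7.00 under DAPT, 6.57, 6.50 and 7.05 under U0126, 7.95, 7.89 and 7.98 under TAE226 and 6.12, 6.45 and 5.88 under PP2. It was dim under PP2, where vehicle was at least 6.83-fold higher, and changed by -2.13 under DAPT, -2.48 under U0126 and -1.24 under TAE226 (standard error 0.21, adjusted p at most 0.000298).

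Parp9 and Dtx3l form a complex of an ADP-ribosyltransferase and a ubiquitin ligase, and Parp14 is a related transferase. Parp9 had log2 signals of 11.99, 12.04 and 12.07 in vehicle, 9.78, 9.92 and 9.79 under DAPT, 9.12, 9.24 and 9.03 under U0126, 10.98, 11.07 and 10.99 under TAE226 and 10.72, 10.67 and 10.59 under PP2. Its groups did not overlap at all, in the order vehicle, TAE226, PP2, DAPT and U0126. The change of Parp9 was -2.20 under DAPT, -2.90 under U0126, -1.02 under TAE226 and -1.37 under PP2 (standard error 0.06, adjusted p at most 5.66e-09). Parp14 was at 10.62, 10.81 and 10.51 in vehicle, 7.66, 7.89 and 7.75 under DAPT, 6.97, 7.35 and 7.24 under U0126, 9.36, 9.34 and 9.31 under TAE226 and 8.16, 7.80 and 7.87 under PP2, with changes of -2.88 under DAPT, -3.46 under U0126, -1.31 under TAE226 and -2.70 under PP2 (standard error 0.12, adjusted p at most 3.9e-07). Dtx3l changed by -1.99 under DAPT, -2.66 under U0126, -0.94 under TAE226 and -1.41 under PP2 (standard error 0.07, adjusted p at most 3.3e-08), in the same order of groups as Parp9. Trim25, the ubiquitin ligase that activates the RNA sensor Rigi, changed least of the class, by -0.87 under DAPT, -1.11 under U0126, -0.52 under TAE226 and -1.04 under PP2 (standard error 0.06, adjusted p at most 7.28e-06).

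Pml, which builds nuclear bodies, had log2 signals of 8.91, 9.20 and 8.68 in vehicle, 7.79, 7.85 and 7.97 under DAPT, 6.99, 7.36 and 7.56 under U0126, 8.36, 8.20 and 8.00 under TAE226 and 7.95, 7.40 and 7.98 under PP2. The vehicle arrays were the highest, and the TAE226 arrays were above the rest. Its change was -1.06 under DAPT, -1.63 under U0126, -0.74 under TAE226 and -1.15 under PP2 (standard error 0.18, adjusted p at most 0.00469). Trim30a, a Trim protein that dampens inflammatory signalling, was at 8.63, 9.29 and 8.33 in vehicle, 5.30, 2.98 and 5.91 under DAPT, 5.64, 4.88 and 5.32 under U0126, 6.89, 6.78 and 6.36 under TAE226 and 3.18, 3.79 and 5.11 under PP2. It was dim under DAPT, U0126 and PP2, where vehicle was at least 5.36-fold, 5.55-fold and 5.05-fold higher. The TAE226 change of -2.07 (standard error 0.61, adjusted p = 0.0159) lost its call when vehicle replicate 2 was left out (adjusted p = 0.0705) or when TAE226 replicate 3 was (0.0572). Sp100, below the array median on all arrays, is not compared by itself.

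The transcription factors include the parts of the complex that drives the other members. Irf7, which amplifies interferon production, had log2 signals of 10.48, 11.02 and 10.22 in vehicle, 7.75, 7.55 and 7.47 under DAPT, 7.71, 7.40 and 7.27 under U0126, 8.97, 9.36 and 9.37 under TAE226 and 7.63, 7.69 and 7.67 under PP2. DAPT, U0126 and PP2 arrays intermixed between 7.27 and 7.75, with TAE226 above them. Its change was -2.98 under DAPT, -3.11 under U0126, -1.34 under TAE226 and -2.91 under PP2 (standard error 0.17, adjusted p at most 1.74e-05).

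Stat2 and Irf9 bind together at the response element. For Stat2 the log2 signals were 8.45, 8.77 and 8.33 in vehicle, 6.45, 6.58 and 6.31 under DAPT, 6.46, 6.78 and 6.35 under U0126, 7.66, 7.59 and 7.56 under TAE226 and 6.75, 6.77 and 6.60 under PP2. The change was -2.07 under DAPT, -1.99 under U0126, -0.92 under TAE226 and -1.82 under PP2 (standard error 0.16, adjusted p at most 0.000358). For Irf9 they were 11.30, 11.18 and 11.15 in vehicle, 9.62, 9.68 and 9.69 under DAPT, 9.32, 9.37 and 9.38 under U0126, 10.86, 10.84 and 10.60 under TAE226 and 9.84, 9.72 and 9.67 under PP2, and the change was -1.55 under DAPT, -1.85 under U0126, -0.44 under TAE226 and -1.47 under PP2 (standard error 0.07, adjusted p at most 0.000193). Both had their TAE226 arrays between vehicle and the other inhibitors, without overlap.

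Irf1, a factor that interferon gamma and other signals induce, fell least of all 44 members. Its log2 signals were 9.88, 9.93 and 10.13 in vehicle, 9.67, 9.37 and 9.61 under DAPT, 9.38, 9.24 and 9.31 under U0126, 9.70, 9.70 and 9.75 under TAE226 and 9.86, 9.72 and 9.56 under PP2. The lowest vehicle array, at 9.88, was only just above the highest PP2 array, at 9.86. The change was -0.43 under DAPT, -0.67 under U0126, -0.27 under TAE226 and -0.27 under PP2 (standard error 0.09, adjusted p at most 0.0366). The TAE226 call was lost without an intensity trend in the variance (adjusted p = 0.0537), with no filter on dim genes (0.0522) and in 5 of the 6 fits that left out 1 array of either group (0.0535 to 0.158). The PP2 call was lost without vehicle replicate 3 (0.102) or without PP2 replicate 3 (0.105).

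Cxcl10, the chemokine that draws T cells through Cxcr3, was above the array median in vehicle only. Its log2 signals were 8.40, 8.81 and 8.42 in vehicle, 2.07, 4.56 and 4.37 under DAPT, 3.27, 1.62 and 3.33 under U0126, 6.02, 6.29 and 5.69 under TAE226 and 2.51, 0.94 and 5.02 under PP2. All inhibitor arrays were at least 2 log2 units below the lowest vehicle array. Vehicle was at least 4.65-fold higher than DAPT, 4.82-fold higher than U0126, 4.28-fold higher than TAE226 and 4.38-fold higher than PP2. The TAE226 call (adjusted p = 0.0413) was lost in each of the 6 fits without 1 array of either group (0.0741 to 0.117).

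Between the inhibitors the members separated TAE226 from the other treatments. In limma 38 of the 44 tested members were lower under DAPT than under TAE226, 38 were lower under U0126 than under TAE226, and 38 were higher under TAE226 than under PP2. None differed the other way in these comparisons, against 11.3%, 17.7% and 20.2% of all genes. Members dim in neither group made up 31, 33 and 30 of the 38. The shares of all genes called in the members' direction were 11.2%, 19.4% and 23.3%. The median difference of the members was -1.50 for DAPT minus TAE226, -1.66 for U0126 minus TAE226 and 1.48 for TAE226 minus PP2. For Usp18, in the same order, the differences were -3.39 (95% confidence interval -3.81 to -2.97, adjusted p = 2.24e-09), -2.86 (95% confidence interval -3.27 to -2.44, adjusted p = 1.21e-08) and 4.25 (95% confidence interval 3.83 to 4.66, adjusted p = 3.8e-11).

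The other 3 inhibitors differed from each other gene by gene. Between DAPT and U0126, 14 members were higher under DAPT and 7 lower, against 23.1% and 21.6% of all genes. Between DAPT and PP2, 9 were higher under DAPT and 7 lower (all genes 21.7% and 17.9%), and between U0126 and PP2, 11 were higher under U0126 and 15 lower (27.9% and 27.7%). These shares are near those of all genes, so nothing is read from the totals. Centring the arrays on their medians left 9 members higher under DAPT than under U0126, with 7 lower, and 9 lower under U0126 than under PP2, with 11 higher. Single genes are given only where neither group was dim, which left 34, 30 and 31 members for the 3 comparisons.

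U0126 and PP2 differed in opposite directions within the list. Higher under U0126 were Rsad2, by 2.19 (95% confidence interval 1.76 to 2.63, adjusted p = 1.42e-07), Ifit2, by 1.47 (95% confidence interval 1.12 to 1.81, adjusted p = 8.87e-07), Usp18, by 1.39 (95% confidence interval 0.97 to 1.81, adjusted p = 1.47e-05), and Oas1a, by 1.33 (95% confidence interval 1.10 to 1.55, adjusted p = 1.88e-08). Xaf1, Iigp1 and Ifi35 were higher by 0.78, 0.61 and 0.33. Lower under U0126 were Parp9, by -1.53 (95% confidence interval -1.66 to -1.40, adjusted p = 4.72e-12), Rtp4, by -1.38 (95% confidence interval -1.62 to -1.15, adjusted p = 2.01e-08), Dtx3l, by -1.26 (95% confidence interval -1.40 to -1.11, adjusted p = 1.44e-10), and Samd9l, by -0.89 (95% confidence interval -1.05 to -0.74, adjusted p = 3.46e-08). Of the 7 GTPases measured in both groups, Gbp2, Gbp7, Irgm1 and Irgm2 were lower under U0126, by -0.63, -0.53, -0.75 and -0.54, and Iigp1 was higher. Igtp did not pass, with an interval of -0.29 to 0.28, nor did Gbp3, with -0.99 to 0.03. Irf1 and Irf9 were lower by -0.40 and -0.39, while the intervals of Irf7 (-0.57 to 0.16) and Stat2 (-0.51 to 0.17) included 0. With the arrays centred on their medians 3 of these calls were lost, for Gbp7 at -0.39 (adjusted p = 0.0597), Irgm2 at -0.40 (0.0759) and Irf9 at -0.25 (0.0729).

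**Figure D4:**
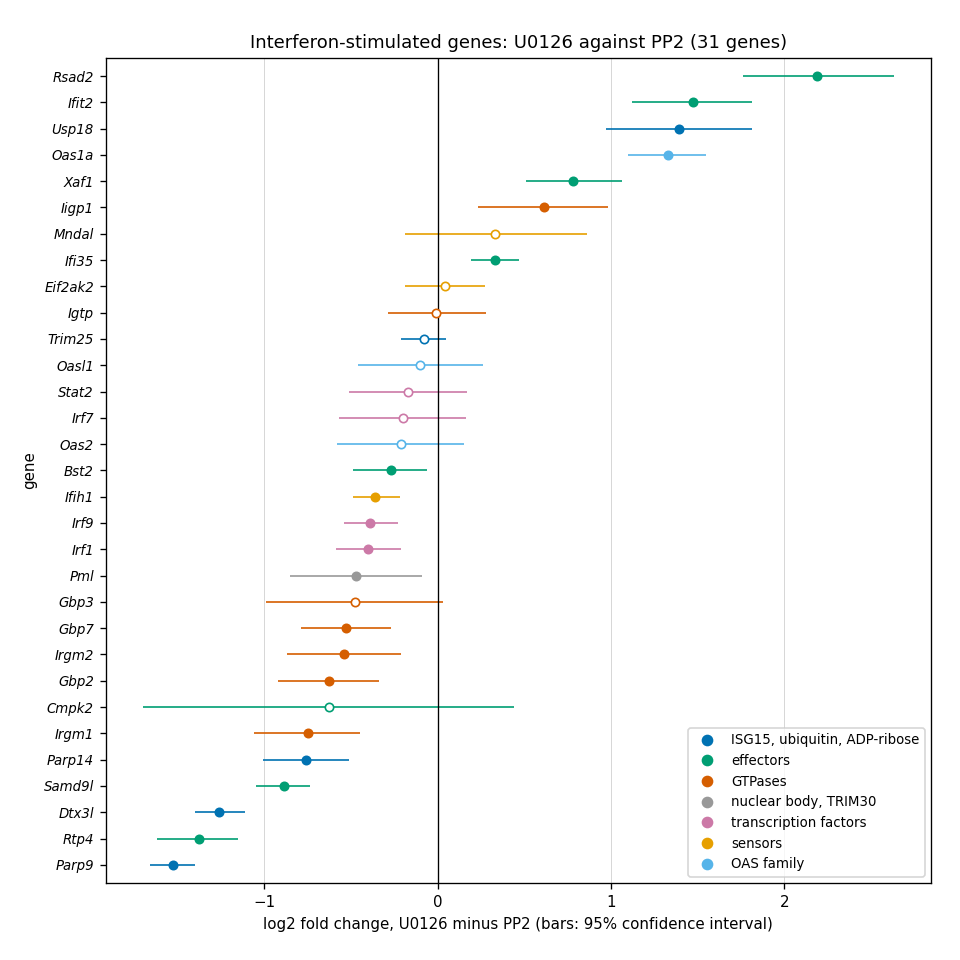
Log2 fold change of U0126 minus PP2 for the 31 members that were dim in neither group, with 95% confidence intervals, coloured by role. Filled points passed the test over all genes and open points did not. Rsad2, Ifit2, Usp18 and Oas1a lie furthest to the right, and Parp9, Rtp4 and Dtx3l furthest to the left.

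Samd9l, Irgm2, Gbp7, Irgm1 and Gbp2 were higher under DAPT than under U0126, by 0.99, 0.88, 0.80, 0.80 and 0.76 (adjusted p at most 0.00026). Rsad2, Ifit1, Bst2 and Ifit3 were lower under DAPT than under U0126, by -1.80, -1.25, -0.97 and -0.93 (adjusted p at most 0.0241). The call of Ifit3 was lost with a pseudocount (-0.48, adjusted p = 0.0502), with signals raised to the array median (-0.56, 0.057) and without DAPT replicate 3 (-0.59, 0.144), U0126 replicate 2 (0.0854) or U0126 replicate 3 (0.0894). Of the 7 GTPases dim in neither group 5 were higher under DAPT and none was lower, against 23.1% and 21.6% of all genes. The fifth, Gbp3, higher by 0.67 (adjusted p = 0.0321), lost its call in 8 alternative settings, with values down to 0.30 (adjusted p = 0.19) without U0126 replicate 1.

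Between DAPT and PP2, of the 30 members dim in neither group 19 did not pass, among them all 7 GTPases and all 4 transcription factors. Over all genes 21.7% were higher and 17.9% lower, so most genes did not pass either and nothing is read from this count. The intervals of DAPT minus PP2 were -0.16 to 0.42 for Gbp2, 0.01 to 0.76 for Iigp1 and -0.44 to 0.29 for Irf7. Oas1a and Usp18 were higher under DAPT, by 1.24 (95% confidence interval 1.02 to 1.46, adjusted p = 8.88e-08) and 0.86 (95% confidence interval 0.44 to 1.27, adjusted p = 0.00236). Bst2, Rtp4 and Parp9 were lower under DAPT, by -1.24 (95% confidence interval -1.46 to -1.02, adjusted p = 6.52e-08), -0.83 (95% confidence interval -1.07 to -0.60, adjusted p = 1.51e-05) and -0.83 (95% confidence interval -0.97 to -0.70, adjusted p = 2.27e-08). The second brightest probe set of Rtp4 gave -0.72 and did not pass in limma (adjusted p = 0.113).

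Within the vehicle group the members moved together as well. Vehicle replicate 2 was the highest of its group for 39 of the 44 tested members and replicate 3 the lowest for 37. Over all genes replicate 2 was the highest for 29.9% and replicate 3 the lowest for 32.1%. The members' median deviation from the vehicle mean was 0.23 log2 units on replicate 2 and -0.20 on replicate 3, small beside the changes under the inhibitors. Leaving out vehicle replicate 2, 3 or any other single array kept 44 members lower under DAPT and under U0126, 39 to 41 under TAE226 and 43 to 44 under PP2.

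Members whose promoter stretch held the core of the response element had a median change of -3.15 under DAPT, -3.50 under U0126, -1.74 under TAE226 and -3.67 under PP2 (16 genes). Those without it had medians of -1.95, -2.41, -0.96 and -1.84 (18 genes). These 18 include Sp100, which was dim in all groups and not tested, so its change has no reliable size. Other dim members entered both sets at their fitted values. Genes without a match in these 250 bases include Oasl2 and Xaf1, which fell under each inhibitor, and their ranges overlap those with a match. The comparison is a description, since the members were chosen as interferon-stimulated genes.

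The genes that make interferon were mostly too dim to read, and those that receive it moved in both directions. Of 10 interferon genes with a probe set, 8 were at or below the array median on too many arrays to be tested. Ifnb1, interferon beta, had log2 signals of 6.36, 5.43 and 6.0 in vehicle, 5.80, 5.95 and 5.20 under DAPT, 5.71, 5.83 and 5.70 under U0126, 5.44, 6.44 and 5.54 under TAE226 and 5.91, 6.66 and 5.49 under PP2. These lie near the array median, the groups overlapped, and no comparison passed in limma (adjusted p from 0.612 to 0.856). At this signal a change of Ifnb1 was not detectable. Ifnz, the other interferon gene tested, is named after its values were seen. It had log2 signals of 9.48, 9.09 and 9.15 in vehicle, 9.21, 9.32 and 9.21 under DAPT and 9.10, 9.05 and 9.13 under U0126. They were 9.41, 9.35 and 9.35 under TAE226 and 9.29, 9.28 and 9.10 under PP2. Ifnz was well above the array medians and was not called against vehicle under any inhibitor.

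Among 9 receptor chains and Janus kinases, 4 were higher and 1 lower under DAPT, 0 higher and 3 lower under U0126, 4 higher and 1 lower under TAE226, and 6 higher and 0 lower under PP2. The shares of all genes higher and lower were 16.8% and 17.5% under DAPT, 19.4% and 21.3% under U0126, 15% and 15.9% under TAE226, and 25.8% and 26.9% under PP2. Ifngr2, the signalling chain of the interferon gamma receptor, had log2 signals of 8.56, 8.80 and 9.04 in vehicle, 9.75, 9.86 and 9.95 under DAPT, 8.69, 8.78 and 8.94 under U0126, 10.19, 10.44 and 10.30 under TAE226 and 10.61, 10.56 and 10.69 under PP2. It was higher by 1.06, 1.52 and 1.82 under DAPT, TAE226 and PP2 and differed by 0.01 under U0126, although its second brightest probe set gave -0.10 under DAPT, and 0.23 and 0.18 under TAE226 and PP2, with none called. Ifnlr1, the interferon lambda receptor, rose by 0.54 under DAPT, 0.45 under TAE226 and 1.28 under PP2 (adjusted p at most 0.00808), and the TAE226 call was lost on centring the arrays on their medians (0.20, adjusted p = 0.203). Jak2, which serves the interferon gamma receptor, fell by 0.62 under U0126 (adjusted p = 4.67e-05) and was 0.25 higher under PP2 (adjusted p = 0.0354). The PP2 value has no settled direction, since the second brightest probe set was called the other way (-0.39, adjusted p = 0.0112), centring gave 0.03, and the call was lost with no filter on dim genes (0.0501), with no intensity trend (0.0518) and in 5 of the 6 fits without 1 array of either group (0.054 to 0.114).

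Genes of the type I receptor and its kinases changed by at most 0.40 log2 units. Ifnar1 was higher by 0.26 under PP2 (adjusted p = 0.0118) and did not pass elsewhere. Ifnar2 changed by -0.23 under DAPT, -0.31 under TAE226 and 0.35 under PP2. Its second brightest probe set gave -0.12, -0.12 and -0.11 in the same order, with none called, and the DAPT call was also lost in 4 of the 6 fits without 1 array of either group (adjusted p from 0.0629 to 0.131). Jak1 was higher by 0.35, 0.22 and 0.38 under DAPT, TAE226 and PP2, although its second brightest probe set gave 0.02 (adjusted p = 0.868) under DAPT. Tyk2 changed by -0.40 under U0126 (adjusted p = 0.0212), but its second brightest probe set gave 0.41 (adjusted p = 0.32), and the call was lost without vehicle replicate 3 (0.105) or U0126 replicate 3 (0.0523). Ifngr1 changed by -0.24 under U0126 (adjusted p = 0.0167), a call lost on centring (0.0601) and without vehicle replicate 2 (0.0888) or U0126 replicate 2 (0.0583). Centring the arrays shifted the median of all genes by -0.12 under DAPT, -0.08 under U0126, -0.24 under TAE226 and -0.20 under PP2. In that setting the rises of Ifnar1, Ifnar2 and Jak2 under PP2, of Ifnlr1 under TAE226 and of Jak1 under DAPT and PP2 no longer passed (Ifnar2 0.13, adjusted p = 0.329), and that of Jak1 under TAE226 became -0.03.

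Of 18 tested genes of upstream sensing and induction, 6 fell and 4 rose under DAPT, 9 fell and 2 rose under U0126, 6 fell and 1 rose under TAE226, and 8 fell and 3 rose under PP2. The shares that fell were thus 33.3%, 50%, 33.3% and 44.4%, each above the 17.5%, 21.3%, 15.9% and 26.9% of all genes. The median changes of the 18 were small, at -0.01, -0.30, -0.15 and -0.17, and 8, 7, 11 and 7 of them were not called. The list as a whole is therefore not read as lower. Ddx58, another symbol of Rigi, changed by -0.99, -1.11, -0.57 and -0.83 under DAPT, U0126, TAE226 and PP2 (adjusted p at most 3.6e-06). Myd88, the adaptor of the Toll-like receptors, changed by -0.22, -0.67, -0.55 and -0.49, and both are named after their values were seen. Cgas, the DNA sensor, changed by -0.85, -0.54, -0.56 and -1.47 under DAPT, U0126, TAE226 and PP2. Adar, which edits double-stranded RNA, changed by -1.0, -1.17, -0.40 and -0.80, and Samhd1, a nucleotide hydrolase, by -0.50, -1.20, -0.48 and -0.36. With the second brightest probe set the calls of Cgas under DAPT (-0.28, adjusted p = 0.223) and TAE226 (-0.31, 0.172) and of Adar under TAE226 (-0.34, 0.0692) were lost. Tlr3, the endosomal RNA receptor, changed by 0.22 under DAPT (adjusted p = 0.0342), -1.14 under U0126, -0.28 under TAE226 (adjusted p = 0.0119) and -0.57 under PP2. Centring gave 0.09 under DAPT (adjusted p = 0.643), and the second brightest probe set gave 0.37 under DAPT (0.18) and -0.15 under TAE226 (0.603).

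Of 11 tested negative regulators, 4 rose and 3 fell under DAPT, 4 rose and 2 fell under U0126, 4 rose and 2 fell under TAE226, and 5 rose and 3 fell under PP2. The 2 or 3 that fell are near the shares of all genes given above for the receptors, and nothing is read from them. Socs3, which blocks Jak kinases, had log2 signals of 11.63, 11.50 and 11.23 in vehicle, 12.51, 12.55 and 12.34 under DAPT, 12.06, 12.10 and 12.16 under U0126, 11.09, 10.97 and 10.92 under TAE226 and 10.93, 10.85 and 11.13 under PP2. It rose by 1.01 and 0.65 under DAPT and U0126, and changed by -0.46 under TAE226 and -0.48 under PP2. On the probe set without a cross-hybridisation suffix the TAE226 and PP2 changes were -0.05 (adjusted p = 0.793) and 0.00 (0.997), and the second brightest probe set gave -0.20 (0.104) under TAE226. The phosphatase Ptpn2 changed by -0.46, -0.45, -0.45 and -0.54 under the 4 inhibitors. The phosphatase Ptpn11 (Shp2), named in the title of the study, did not pass in any comparison with vehicle (group means 11.72 to 11.96). Nfkbia changed by -0.65 under DAPT, and Tnfaip3 by -0.45 under DAPT, 0.39 under TAE226 and 0.29 under PP2. Centring the arrays took Tnfaip3 to 0.13 (adjusted p = 0.471) under TAE226 and 0.07 (0.701) under PP2, and the PP2 call was lost without vehicle replicate 3 (0.19, adjusted p = 0.124), PP2 replicate 1 (0.0712) or PP2 replicate 3 (0.0679).

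Most genes of a further list of interferon-induced genes outside the 47 fell. Of 50 tested, 39 fell under DAPT, 44 under U0126, 34 under TAE226 and 36 under PP2, with medians of -1.19, -1.17, -0.80 and -0.93. The shares that fell were thus 78%, 88%, 68% and 72%, against 17.5%, 21.3%, 15.9% and 26.9% of all genes. Those that rose numbered 1, 1, 2 and 2, against 16.8%, 19.4%, 15% and 25.8% of all genes. Ddx60, a helicase that aids RNA sensing, had log2 signals of 9.78, 10.08 and 9.53 in vehicle, 5.96, 5.08 and 5.55 under DAPT, 3.20, 4.16 and 4.37 under U0126, 8.09, 8.17 and 7.94 under TAE226 and 4.92, 4.85 and 5.28 under PP2. It was dim under DAPT, U0126 and PP2 and changed by -1.73 under TAE226 (adjusted p = 0.000323). Ifi204, a relative of Mndal, was dim in the same 3 groups and changed by -2.06 under TAE226 (adjusted p = 0.000213), and Gbp6 and Casp4 were dim under all inhibitors. Gbp6 and Casp4 thus entered the test through the vehicle arrays, where they were high, and no count was made without such genes. With signals raised to the array median, limma did not call Casp4 under DAPT (-0.33, adjusted p = 0.182) or U0126 (-0.38, adjusted p = 0.109). Il15, the cytokine that sustains natural killer cells, went the other way, and is named after its values were seen. Its log2 signals were 7.48, 7.38 and 7.53 in vehicle, 8.04, 7.73 and 7.80 under DAPT, 7.67, 7.39 and 7.67 under U0126, 7.86, 7.84 and 7.84 under TAE226 and 9.86, 9.57 and 9.58 under PP2. The PP2 arrays were the highest by more than 1.5 log2 units, with a rise of 2.21 (adjusted p = 1.39e-10).

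**Figure D5:**
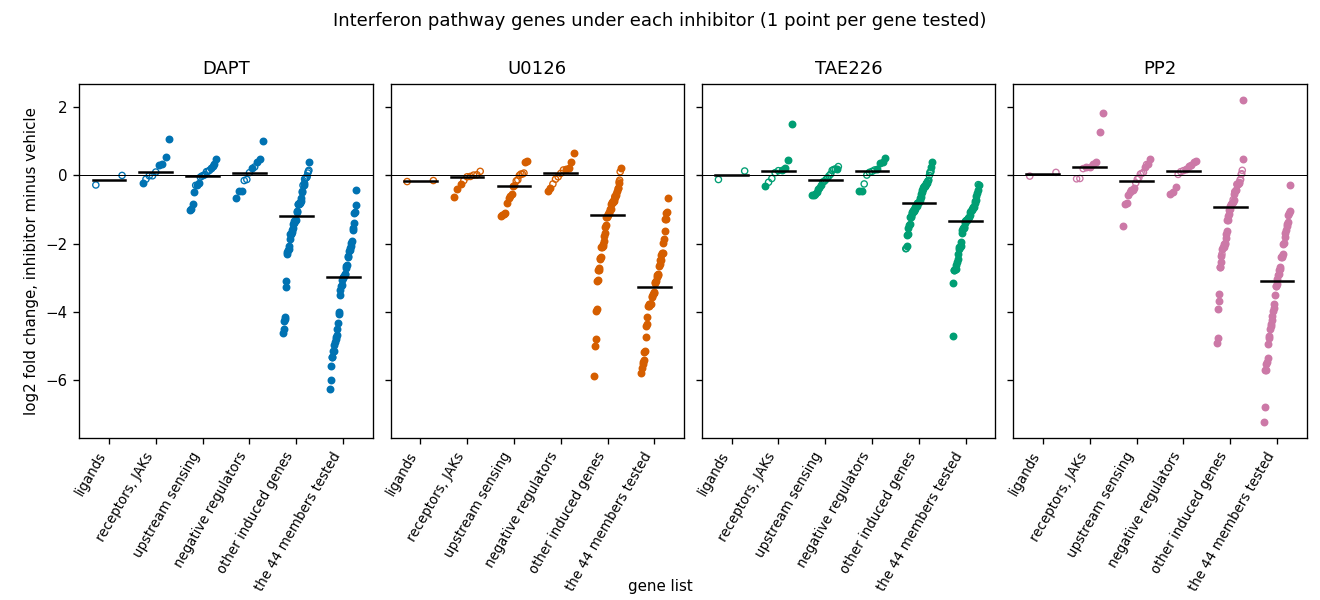
Log2 fold change against vehicle of each tested gene (points) in 5 lists of the interferon pathway and in the 44 tested members, with 1 panel per inhibitor and the list median as a bar. Filled points passed the test. The medians of the ligands, receptors, sensing genes and negative regulators lie between -0.30 and 0.26, and those of the other induced genes and the members lie below them.

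Cell type markers were read beside these changes. The 12 epithelial markers, Epcam and Krt8 among them, were dim in no group, and their summed signal was 87290 to 111297 over all arrays. Of 15 markers of macrophages and other myeloid cells 11 to 12 were dim in each group, among them Ptprc, the pan-leukocyte marker, Lyz2, Tyrobp and C1qa. Their summed signal was 11443 to 12624 in vehicle, 9101 to 9316 under DAPT, 2278 to 2607 under U0126, 7373 to 7888 under TAE226 and 11889 to 12320 under PP2. These sums rest on the 3 or 4 markers that were not dim. Of the 4 tested against vehicle, 1 was lower under each of DAPT, U0126 and TAE226, and 1 was higher under PP2. Under U0126 that 1 fell by 2.51, 3 were not called and the median was 0.12. The sums are thus not read as a number of such cells, and their part in the members' changes was not tested. Siglech, Ccr9 and Spib, markers of the plasmacytoid dendritic cells that make interferon, were dim in all groups. The summed signal of that list of 6 markers was 5174 to 5990 in vehicle, 3203 to 3663 under DAPT, 4367 to 4707 under U0126, 2626 to 3011 under TAE226 and 1786 to 1963 under PP2. This sum rests on Klk1, Cox6a2 and Ly6d, and Cox6a2 was dim under DAPT. Against vehicle 1 of these 3 was lower under each inhibitor and 0 were higher, so the sum is not read as a number of such cells. Its part in the members' changes was not tested. Of the T and natural killer cell markers 7 to 8 of 9 were dim, of the B cell markers 3 to 4 of 4, of the fibroblast markers 5 to 6 of 7 and of the endothelial markers 5 of 6. The sample numbers run by group, and whether they follow the order of hybridisation is not known here. If they do, that order and the treatment cannot be told apart.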

How the data were processed

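RNA of 15 samples (5 groups of 3) was hybridised to Affymetrix Mouse430_2 arrays from 250 ng total RNA each, per the labels' protocols. The authors deposited linear MAS5 intensity values for 45101 probe sets, made with Affymetrix Expression Console per the submitters' processing notes (no source used here gives versions). Over the deposited values, the mean without 2% at each end was 500.0 on each array, so arrays share a scale set by their bright genes. MAS5 subtracts mismatch probes, which makes low signals noisy. Precision is limited by how many arrays there are.

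The 64 control probe sets were left out. GEO's platform annotation named 1 gene for 34945 probe sets and several for 932, and symbols were updated through Entrez identifiers where the RefSeq table held them (34741). Of the interferon list, 2 genes had no probe set of 1 gene, 20 measured members had more than 1, and 3 were read by probe sets whose suffix marks shared or cross-hybridising sequence. Genes whose signal passed the array median on 3 or more of the 15 arrays (11465) were fitted on log2 intensity with limma 3.58.1 in R 4.3.3 (lmFit, eBayes with an intensity trend, 10 residual degrees of freedom), with all 5 groups in 1 model, two-sided tests and Benjamini-Hochberg adjustment over all genes tested, threshold 0.05. P-values measure only the spread between these samples, which may be technical. The fit was tested on simulated data. Figures used matplotlib 3.10.9.

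The members and the gene lists were chosen with earlier results of these data known. Signals on every array are given for up to 4 members per role with the widest range of group means and for any member not called against vehicle in a comparison. Pathway genes named are those set by default and up to 4 per list with the widest range past the F-test. The titles share replicate numbers; deviations from the group means of same-numbered arrays correlated between -0.24 and 0.20, with 6 of 30 pairs over 0.1, so the numbers were not used as pairs. The alternatives tried were another normalization, centring, a pseudocount, no filter, other probe sets, no trend, a replicate block, the 2 groups alone and each array left out. Raising dim signals to the array median and leaving out members bright in vehicle only were chosen after seeing the data.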

Additional observations from a re-analysis of the deposited data

How the results depend on the processing

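Against vehicle each tested member kept its direction in all settings, and all 4 counts stayed within 1.5 times their value except with the second brightest probe set. Only 17 members could be tested on that probe set: 17 were lower under DAPT, 17 under U0126, 16 under TAE226 and 17 under PP2, and 17 differed among the 5 groups. Between inhibitors it gave 5 higher and 4 lower for DAPT against U0126, 15 lower for DAPT against TAE226, 3 higher and 2 lower for DAPT against PP2, 12 lower for U0126 against TAE226, 5 higher and 6 lower for U0126 against PP2, and 13 higher for TAE226 against PP2. Centring the arrays gave 9 higher for DAPT against U0126 and 9 lower for U0126 against PP2, and fitting only the 2 groups gave 1 higher for U0126 against TAE226. The causes were not tested, apart from the smaller number of genes.

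Leaving out 1 array at a time gave 44 to 44 members lower under DAPT and U0126, 39 to 41 under TAE226 and 43 to 44 under PP2. Between inhibitors the ranges were 12 to 14 higher and 5 to 8 lower for DAPT against U0126, 8 to 10 and 6 to 8 for DAPT against PP2, and 10 to 11 and 13 to 15 for U0126 against PP2. Lower counts were 37 to 38 for DAPT against TAE226 and 37 to 39 for U0126 against TAE226, and higher counts 37 to 38 for TAE226 against PP2. The replicate numbers as a block gave 44, 44, 42 and 44 members lower than vehicle, and 10 higher and 8 lower for DAPT against PP2. The arrays share only a number, and the block result is not read further.

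Some single genes reversed. With the second brightest probe set the difference was 1.06 for Zbp1 between DAPT and PP2 and 0.35 between U0126 and PP2, -0.46 for Pml between DAPT and U0126 and 0.05 between U0126 and PP2. Against vehicle it was -0.11 for Ifnar2 and -0.39 for Jak2 under PP2 (the latter called, adjusted p = 0.0112), -0.10 for Ifngr2 under DAPT and 0.41 for Tyk2 under U0126. With signals raised to the array median, Oasl2 gave -0.09 between DAPT and PP2 and -0.14 between U0126 and PP2, and Ifit1 gave -0.05 between DAPT and PP2, since both groups are then held at the floor. Centring gave -0.03 for Jak1 under TAE226, and avoiding cross-hybridising probe sets gave 0.00 for Socs3 under PP2. Signals under the array median limit what can be said of Mx1, Ifi47 and Cxcl10 under all inhibitors, and of Mx2, Oasl2 and Trim30a under DAPT, U0126 and PP2, to bounds.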
